A study of Mus musculus with 33 samples.

Results

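The chromatin contacts of the INT2 bait were compared with those of the TEAp bait in CD4+CD8+ double-positive (DP) thymocytes. The samples were chosen by their titles, 3 libraries for each bait, which are 6 of the 33 samples of the series. Both groups came from C57BL/6 mice with the genotype CBE+/+Rag1-/-, so both carry the intact CTCF site next to Eα and both lack the Rag1 recombinase. The methods give mice of 3 weeks that received 150 μg of the anti-CD3 antibody 2C11, and thymi taken 10 days later. Anti-CD3 drives Rag1-/- thymocytes to the DP stage without rearrangement of an antigen receptor gene, so every cell carries the germline locus, and thymocytes were used without sorting. In 3C-HTGTS, cross-linked chromatin is cut with MboI and ligated, and ligation products are amplified from a biotin-labelled primer in the bait and sequenced. Reads with at least 2 MboI fragments after the bait report a three-way contact. The values are numbers of such reads for each pair of 5 kb bins of chromosome 14 (mm10) that holds the 2 fragments. The comparison asks how the locus looks from a boundary element and how it looks from a promoter in the same kind of cell.

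The Tcra-Tcrd locus nests the Tcrd gene inside the Tcra gene. V gene segments lie upstream, followed by INT1 and INT2, which are insulators bound by CTCF that separate the V genes from the Dδ, Jδ and Cδ segments of Tcrd. TEAp, the promoter of the T early α transcript, lies at the upstream edge of the Jα array and activates recombination of the proximal Jα segments. Eα, the enhancer downstream of the constant gene Trac, drives transcription and Tcra recombination in DP thymocytes.

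The bait sequences show where each view starts. The 2 segments below run from the bait primer to the MboI site at which the ligated fragments begin, and the capitals mark that site (GATC). The INT2 segment is the minus strand of chr14:54065620-54065783, in an MboI fragment of 500 bp upstream of Trdv4 and Trdd1. The TEAp segment is the plus strand of chr14:54153052-54153137, at the end of a fragment of 492 bp between Trdv5 and Traj61.
INT2 bait: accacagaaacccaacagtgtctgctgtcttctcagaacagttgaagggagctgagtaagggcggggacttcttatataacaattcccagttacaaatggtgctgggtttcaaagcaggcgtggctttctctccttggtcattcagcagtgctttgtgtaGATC
TEAp bait: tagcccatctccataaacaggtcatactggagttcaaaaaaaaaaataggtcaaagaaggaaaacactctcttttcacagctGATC

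The starts of the bait fragments lie 87022 bp apart. The letters of a CTCF core were searched on both strands as CC, any 3 bases, AG, any 2 bases and GGC. They occur in neither bait fragment, and 3.65% of the MboI fragments of chromosome 14 hold them. The paper, however, places the TEAp bait in the fragment that holds the CTCF site of TEAp. A fragment without the letters is therefore not shown to lack a CTCF site. The match nearest to the INT2 fragment lies 5900 bp from its middle, at chr14:54059964-54059975 on the plus strand. The match nearest to the TEAp fragment lies 913 bp from its middle, at chr14:54153795-54153806 on the minus strand. They are printed with their flanking bases, and the capitals mark the letters that match. Of the 5 kb bins of chromosome 14, 35.8% hold such a match, so the letters describe these places and do not show that CTCF binds there.
near the INT2 bait: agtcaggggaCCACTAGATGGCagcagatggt
near the TEAp bait: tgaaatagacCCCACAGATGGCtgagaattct

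The INT2 libraries held 138699, 328127 and 206177 reads with both fragments on chromosome 14. The TEAp libraries were shallower, with 96213, 73726 and 110426 reads. A count of 3 was between 0.000914% and 0.00407% of the reads of a library. Reads carry no molecular identifier. In the TEAp libraries each distinct pair of fragments was read 2.84 to 4.06 times on average, so the counts are not independent molecules. The floors of 3 counts cover counting error alone. The labels do not say whether libraries came from separate mice, and p-values then measure the spread between these libraries, which may be technical.

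The 2 baits differed most in how often a read came back to the bait itself. The bins of the bait intervals, 54055001 to 54070000 (the INT bins, with the INT2 bait) and 54150001 to 54155000 (the TEAp bin), held a fragment of 84.4%, 87.6% and 84.9% of the INT2 reads. They held a fragment of 23.6%, 24.4% and 24.7% of the TEAp reads. The groups did not overlap, and the means were 85.6% ± 1.70 (SD, n = 3) and 24.2% ± 0.576 (SD, n = 3). With 3 libraries against 3, an exact two-sided permutation test cannot go below p = 0.1, which this difference reached, with an adjusted p of 0.150 over the 18 shares compared. Both fragments lay in the bait's own 5 kb bin in 10.0%, 17.5% and 15.8% of the INT2 reads and in no TEAp read. Whether fragments ligated close to the bait were removed to the same extent for both baits was not tested.

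The difference lay in the bait's own bin. The 5 kb bin of the INT2 bait, 54065001 to 54070000, took part in 78.7%, 82.7% and 79.8% of the INT2 reads. The TEAp bin took part in 0.730%, 0.892% and 0.830% of the TEAp reads. It was even more frequent in the INT2 reads, at 1.24%, 1.20% and 1.21%. In the other direction, the INT bins were present in 23.0%, 23.7% and 24.0% of the TEAp reads. The bin next to the INT2 bait bin, 54060001 to 54065000, was the top bin of each TEAp library, with 6.87% to 7.70% of the fragments. The distance between the baits is the same from both ends, yet contacts of TEAp with the INT bins took about 24% of its reads and contacts of INT2 with the TEAp bin about 1.2% of its own. The INT window is wider (15 kb against 5 kb), so these values are set side by side and were not tested against each other. Whether the fragments in the INT2 bait bin are contacts or ligation products of the bait with its neighbours cannot be told apart in these counts.

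**Figure D1:**
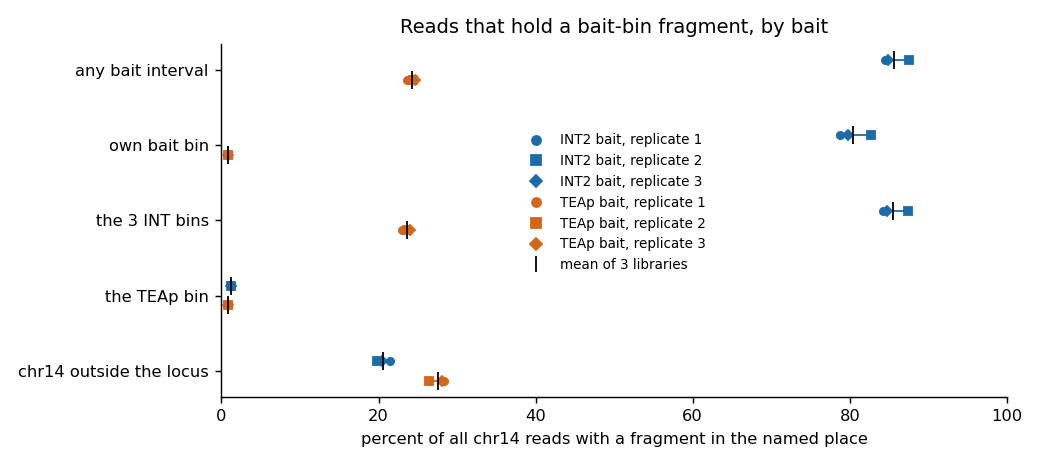
Percent of all chromosome 14 reads (x axis) that hold a fragment in the named place, 1 point per library, blue for the INT2 bait and orange for the TEAp bait, with the mean as a tick and the range as a line. The 3 INT2 libraries lie between 78.7% and 82.7% for their own bait bin and the TEAp libraries between 0.730% and 0.892% for theirs.

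Where an INT2 read held exactly 1 fragment in the bait bin, the other fragment shows what INT2 touched. Proximal V genes (53740001 to 54055000) gave 26.2%, 23.8% and 23.9% of these fragments. The Tcrd interval between the INT bins and the TEAp bin (54070001 to 54150000, with Trdd1, Trdd2, Trdj1, Trdj2 and Trdc) gave 25.1%, 24.8% and 26.0%. INT2 thus touched the V side and the Tcrd side in near equal shares, although the Tcrd interval spans 80 kb and the proximal V region 315 kb. Proximal Jα segments (54155001 to 54165000) gave 2.31%, 2.42% and 2.69%, distal Jα segments up to 54215000 gave 6.81%, 6.93% and 6.06%, and the stretch from Trac to Eα gave 2.18%, 2.30% and 2.50%.

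With every pair of bins kept, 8570 pairs had at least 10 counts over the 6 libraries. The edgeR quasi-likelihood test called 208 of them higher with the INT2 bait (2.43% of those tested) and 305 higher with the TEAp bait (3.56%), at an adjusted p under 0.05. The bait sets this picture: the 208 pairs higher with INT2 each held the INT2 bait bin, and none of the 305 did. Of the 305, 52 held one of the 2 other INT bins, 3 held the TEAp bin and 250 held neither. Among all 8570 tested pairs, 2205 held the INT2 bait bin, 494 one of the 2 other INT bins, 66 the TEAp bin and 5808 none of these. The split moved with the scaling, since TMM normalization gave 331 and 13 and DESeq2 gave 309 and 157. The median log2 fold difference over the tested pairs was -1.65 with library totals and 0.06 with TMM, so a pair's direction here is relative to the bait's own share.

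The INT2 pairs with the largest differences joined the bait bin to places downstream of the locus, and no TEAp read held such a pair. The pair with the bin of Oxa1l and Slc7a7 (54365001 to 54370000), genes outside the receptor locus, had 155, 382 and 359 reads with INT2 and 0 in each TEAp library. Against a floor of 3 counts over the 3 TEAp libraries it was at least 124-fold higher (edgeR adjusted p = 8.60e-18). Pairs of the bait bin with the Slc7a7 bins at 54385001 and 54390001, the Ajuba bin at 54570001 and a bin without an annotated gene at 54485001 were also at 0 with TEAp and at least 51.9-fold to 79.0-fold higher. Since a pair with the INT2 bait bin is a two-way contact for INT2 and a three-way contact for TEAp, these pairs compare different kinds of contact.

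The TEAp pairs with the largest differences lay within or between the V and Jα parts of the locus. The bin at 53800001, in the V region without an annotated gene, with the bin of Traj61 to Traj56 (54155001), the Jα segments nearest to TEAp, had 47, 31 and 35 reads with TEAp and 0 with INT2, at least 90.4-fold higher (edgeR adjusted p = 2.14e-06). The bin of Trav21, a proximal Vα gene listed as Trav21-dv12, with the bin of Traj55 to Traj53 had 36, 46 and 13 reads with TEAp and 0 with INT2, the one pair among these that joined an annotated V segment to Jα segments. Trdv3 and Trdv2-2, Vδ genes, were each joined to a bin between the gene and the INT bins, with 14 to 60 and 9 to 57 reads with TEAp and none with INT2. The Traj42 to Traj39 bin was joined to the Traj7 to Traj5 bin in 34, 37 and 18 TEAp reads and in none of INT2. None of these pairs contains a bait bin, and for INT2 the reads that can show them are the 12.4% to 15.6% that stay away from the bait intervals. The 90.4-fold bound divides by all INT2 reads and is therefore larger than one on those reads alone. With bait-interval pairs left out, none of these TEAp pairs was called.

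Without the pairs that have a fragment in the bait intervals, 21586, 40767 and 31175 reads were left with INT2 and 73505, 55709 and 83145 with TEAp. In these reads the bait is joined to 2 fragments away from both baits, so both views count the same kind of contact. Few single pairs passed the test: of 5808 tested pairs, 4 were higher with INT2 (0.0689%) and 2 with TEAp (0.0344%), against 208 and 305 before. Many tested pairs hold few counts, so the number of calls does not show that few pairs differ. Across the 105 bins of the locus that were compared, log2 profiles correlated at r = 0.906 to 0.955 between libraries of different baits (9 pairs of libraries) and at 0.923 to 0.981 between libraries of the same bait (6 pairs). These correlations are across bins, which are not independent, and the bins share their mappability and fragment number between libraries.

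The 6 calls were pairs of fragments within the same bin. None of the 4 called higher with INT2 was among the 208 pairs above, since each of those held the INT2 bait bin. The bin at 54125001, between Trdj1 and Trdj2, held both fragments of 4.05%, 4.66% and 4.40% of the INT2 reads left and of 2.88%, 3.27% and 3.00% of the TEAp reads left, a 1.43-fold difference (edgeR adjusted p = 2.36e-18). The bins at 54080001, 54095001 and 54115001, between the INT bins and Trdd2, were higher with INT2 by log2 differences of 0.94, 0.65 and 0.81. The call at 54095001 was lost without INT2 replicate 1 or 3 (edgeR adjusted p = 0.130 and 0.197) and without TEAp replicate 1 or 3 (0.0540 and 0.654), and that at 54115001 without INT2 replicate 3 (0.304) and TEAp replicate 3 (0.654). As a share of all reads, these 4 pairs ran the other way: both fragments lay in 54125001 in 0.631%, 0.579% and 0.666% of the INT2 reads and in 2.20%, 2.47% and 2.26% of the TEAp reads (log2 difference -1.89). Higher with TEAp was the bin of Traj52 to Traj48 (54165001), with 0.264%, 0.721% and 0.443% of the INT2 reads and 1.04%, 1.04% and 1.06% of the TEAp reads, a log2 difference of -1.13 ± 0.18 (SE). The bin of Trdc and Trdv5 next to TEAp (54145001) had 1, 13 and 4 reads with INT2 against 102, 114 and 148 with TEAp, a log2 difference of -3.34 ± 0.82 (SE, edgeR adjusted p = 0.0432). That call was lost without any 1 library other than INT2 replicate 2 (adjusted p from 0.0609 to 0.670). Scaling decided the INT2 calls: TMM gave 0 higher with INT2 and 3 with TEAp and DESeq2 gave 0 and 8. With same-bin pairs left out, edgeR called 0 pairs, with 326 at an unadjusted p under 0.05.

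Summed over parts of the locus, pairs within the Tcrd interval were more frequent with INT2, and pairs within the Jα to Eα part and within the V genes with TEAp. Both fragments lay in the Tcrd interval in 17.3% ± 0.324 (SD, n = 3) of the INT2 reads and in 13.9%, 14.6% and 13.4% of the TEAp reads. Both lay between Traj61 and Eα in 5.77%, 7.13% and 5.98% of the INT2 reads and in 8.81%, 9.56% and 8.15% of the TEAp reads. Both lay among the V genes in 15.5%, 15.9% and 15.7% with INT2 and in 18.4%, 18.4% and 19.5% with TEAp. The groups did not overlap for these 3 shares (exact permutation p = 0.1 each, the smallest possible, adjusted p = 0.150).

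Reads that join 2 parts of the locus differed too. V genes were joined to the Tcrd interval in 9.81% ± 0.538 (SD, n = 3) of the INT2 reads left and in 8.04% ± 0.224 (SD, n = 3) of the TEAp reads left. V genes were joined to the Jα to Eα part in 4.96% ± 0.440 of the INT2 reads and in 6.52% ± 0.133 of the TEAp reads. Joins of the interval to the Jα to Eα part, 3.72% to 4.58% and 4.33% to 5.11%, overlapped between the baits (exact permutation p = 0.3). For the first 2 of these joins the groups did not overlap (exact permutation p = 0.1 each, the smallest possible, adjusted p = 0.150).

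Over the 36 pairs of classes, most pairs called higher with TEAp contained the proximal Jα class. With edgeR, 4 class pairs were higher with INT2 (11.1%) and 7 with TEAp (19.4%), and the median log2 difference over the 36 was -0.20. Of the 7, 5 contained the proximal Jα class, Traj61 to Traj53, the segments used first in Tcra rearrangement. This class starts at 54155001, directly after the TEAp bin, and whether closeness to the bait plays a part was not tested. The remaining pairs of this class, with distal and central V genes, with Trac to Eα and with the downstream flank, were not called (edgeR adjusted p = 0.119, 0.0512 and 0.0779). Proximal Jα with proximal Jα took 0.412%, 0.424% and 0.439% of the INT2 reads and 0.869%, 0.898% and 0.649% of the TEAp reads, a log2 difference of -0.92 ± 0.20 (SE, adjusted p = 0.00304). Proximal Jα with distal Jα took 0.749% ± 0.264 (SD, n = 3) with INT2 and 1.46% ± 0.085 with TEAp, a log2 difference of -0.95 ± 0.21 (SE). Proximal Jα with proximal V genes took 0.931%, 0.672% and 0.998% with INT2 and 1.22%, 1.46% and 1.42% with TEAp, a log2 difference of -0.66 ± 0.18 (SE), and the call was lost without TEAp replicate 3 (edgeR adjusted p = 0.0663).

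The other class pairs called higher with TEAp were proximal Jα with the rest of chromosome 14 (-1.32), proximal Jα with the Tcrd interval (-0.47), distal Jα with itself (-0.39) and proximal V with itself (-0.31). Those higher with INT2 were the Tcrd interval with itself (0.31), with proximal V genes (0.28) and with the rest of chromosome 14 (0.28), and pairs with both fragments in the rest of the chromosome (0.25). The split was 7 and 3 with TMM and 5 and 5 with DESeq2. Proximal Jα with itself, with distal Jα and with the rest of the chromosome held under both scalings, and so did the 4 pairs higher with INT2, whereas proximal Jα with proximal V was lost with TMM (log2 difference -0.41, adjusted p = 0.122). Distal Jα with itself and proximal Jα with the interval were lost with both, and proximal V with itself was lost with TMM (adjusted p = 0.395). Without single libraries, proximal Jα with the interval was lost without INT2 replicate 1 or 2 or TEAp replicate 2 or 3 (adjusted p from 0.0695 to 0.169), distal Jα with itself without INT2 replicate 1 or TEAp replicate 3 (0.0795 and 0.0617), and the interval with the rest of the chromosome without INT2 replicate 1 (0.0564).

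**Figure D2:**
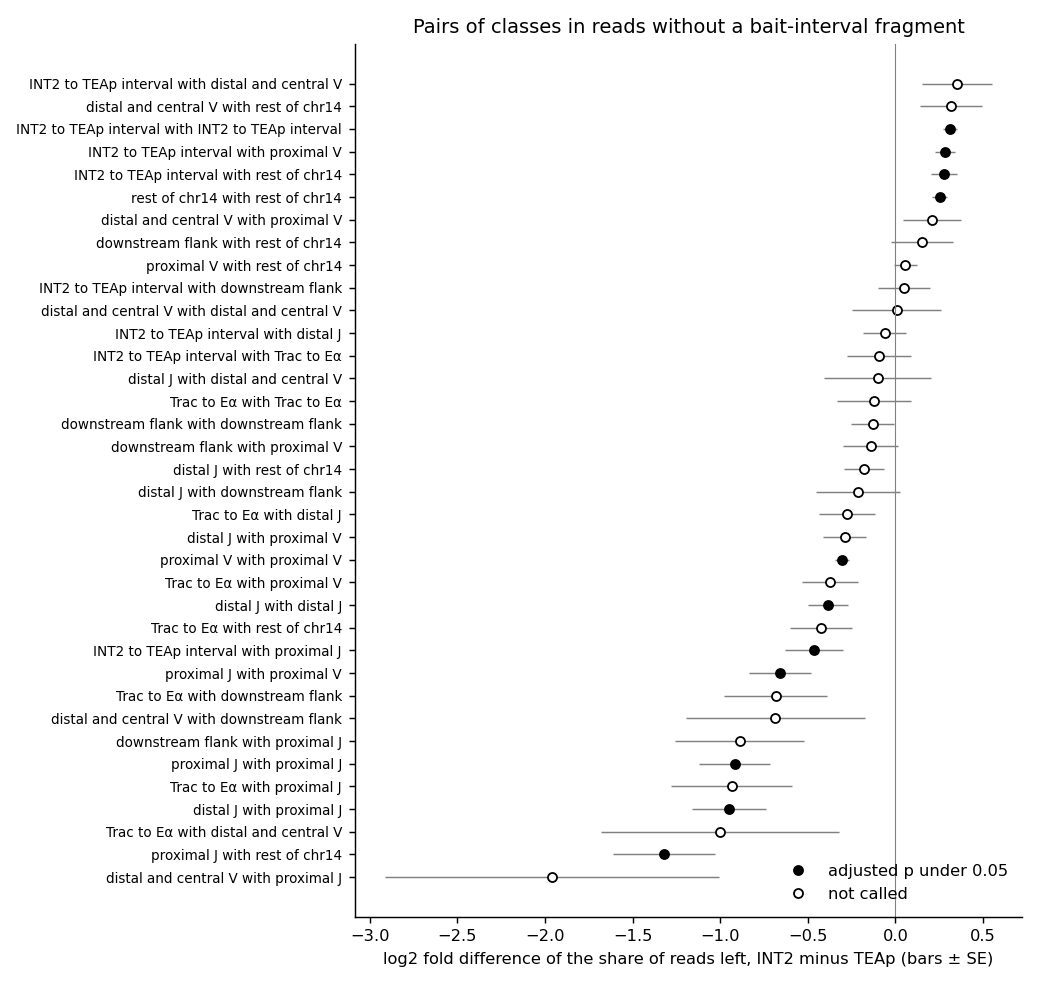
Log2 fold difference of the share of reads left, INT2 minus TEAp (x axis), for the 36 pairs of classes of the locus, with bars of 1 SE and filled points for an adjusted p under 0.05. The 4 filled points right of 0 are 3 pairs with the INT2 to TEAp interval and the rest of the chromosome with itself, and 5 of the 7 filled points left of 0 contain proximal J. Open points were not called, among them proximal J with distal and central V, with Trac to Eα and with the downstream flank.

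Counted by bin, 19 of 2801 tested bins differed in the reads left: 11 were higher with INT2 (0.393%) and 8 with TEAp (0.286%). The median log2 difference over the tested bins was -0.45, and the split was 6 and 18 with TMM (median -0.71) and 6 and 33 with DESeq2 (median -0.96). Values below are the percent of the fragments of the reads left that fell in a bin. Bins have the same length but differ in their number of MboI fragments, with 19 at 54125001 and 7 at Eα. A value is therefore best compared between the baits within a bin.

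On the INT2 side, the bins next to the bait interval and downstream of it were higher. The bin at 54070001 with part of Trdv4, a Vδ gene between INT2 and Trdd1, held 1.38%, 1.10% and 1.04% with INT2 and 0.601%, 0.380% and 0.591% with TEAp. This was 2.24-fold (edgeR adjusted p = 7.90e-12), and it was called under each of the scalings. The next bin, at 54075001, held 1.16%, 0.936% and 1.12% against 0.622%, 0.519% and 0.604% (log2 difference 0.88 ± 0.15, SE), and the bin at 54080001 held 1.97%, 1.93% and 1.66% against 1.02%, 0.967% and 0.930% (0.93 ± 0.12). The groups did not overlap in these 3 bins, and the last 2 missed the threshold with DESeq2. Farther into the interval, the bins at 54095001 (0.52), 54100001 (0.60), 54115001 (0.49) and 54125001 (0.31) were also called, and with TMM none of these 4 was. The call at 54095001 was lost without TEAp replicate 3 (edgeR adjusted p = 0.297) and that at 54100001 without any 1 library other than INT2 replicate 2 (0.0836 to 0.651).

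On the TEAp side, the Jα segments near the bait were higher. The bin of Traj61 to Traj56, 5 kb downstream of the TEAp bin, held 1.09%, 1.33% and 1.57% of the INT2 fragments and 2.29%, 2.80% and 2.34% of the TEAp fragments, a log2 difference of -0.90 ± 0.10 (SE, edgeR adjusted p = 3.64e-15). Traj55 to Traj53 differed by -0.75 ± 0.14 and Traj52 to Traj48 by -0.60 ± 0.09, while Traj47 to Traj43 differed by -0.39 ± 0.11 with groups that overlapped. The call of Traj47 to Traj43 was lost without INT2 replicate 1 or 3 (edgeR adjusted p = 0.495 and 0.129), without TEAp replicate 1 or 2 (0.357 and 0.631) and with the replicate block (0.119). The next bin, at 54175001, was not called (-0.48 ± 0.17, adjusted p = 0.414). On the upstream flank of TEAp, the bin with the end of Trdc and with Trdv5, a Vδ gene downstream of Cδ in inverted orientation, held 1.15%, 1.16% and 1.16% with INT2 and 1.88%, 2.17% and 1.89% with TEAp (-0.77 ± 0.11).

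Away from both baits, Eα and 2 Vδ genes stood out. The bin of Eα (54225001 to 54230000) held 0.769%, 1.19% and 0.948% with INT2 and 1.29%, 1.79% and 1.68% with TEAp, a log2 difference of -0.71 ± 0.12 (SE, edgeR adjusted p = 1.54e-06). Trdv2-2, a Vδ gene 105 kb upstream of the INT2 bait bin, held 0.542%, 0.553% and 0.494% with INT2 and 1.09%, 1.16% and 1.08% with TEAp (-1.07 ± 0.15, adjusted p = 1.23e-09). Trdv3, annotated as a pseudogene, held 0.771%, 0.743% and 0.877% against 1.30%, 1.20% and 1.24% (-0.64 ± 0.13). The INT2 libraries were thus below every TEAp library at Eα, Trdv2-2 and Trdv3, and these 3 bins stayed higher with TEAp with TMM and DESeq2. Trdv2-2 and Trdv3 lie nearer to INT2 than to TEAp, whereas the called bins beside each bait were higher with that bait. Whether the difference follows the distance from the baits was not tested.

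Outside the locus, 4 bins of chromosome 14 were called higher with INT2. Oxnad1 had the bin with reads in each INT2 library, 6, 65 and 10 fragments against 0 with TEAp, at least 61.3-fold higher. INT2 replicate 2 held most of these fragments, and without it the bound was 21.5-fold and the call was lost (edgeR adjusted p = 0.577). The other 3 had fragments in 1 or 2 INT2 libraries, and the TEAp libraries were at 0. All 4 calls were lost without any 1 of the TEAp libraries (adjusted p from 0.121 to 0.502).

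Since INT2 reads rarely stay away from the bait bin, a further view kept every read and dropped the fragments in the bait intervals alone, which was added after the data were seen. It held 135977 to 284553 fragments with INT2 and 125651 to 187930 with TEAp. Of 4398 tested bins, 15 were higher with INT2 (0.341%) and 15 with TEAp (0.341%), and in all 30 the groups did not overlap and the bin lay in the region from 53740001 to 54300000. Of the 19 bins called in the reads left, 12 were called here in the same direction and the bin at 54125001 in the other. TMM gave 8 and 19 and DESeq2 gave 3 and 29. For INT2 this view is mainly the fragments joined to the bait bin and for TEAp it is mainly the reads left, so two-way and three-way contacts are mixed in different parts.

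The flank of INT2 was the largest difference of this view. The Trdv4 bin at 54070001 held 2.35%, 2.06% and 2.14% with INT2 and 0.761%, 0.481% and 0.713% with TEAp (log2 difference 1.74 ± 0.09, SE). The next bin held 1.35%, 1.43% and 1.43% against 0.625%, 0.553% and 0.645% (1.21 ± 0.10). Between Trdv4 and Trdd1, the bins at 54100001 and 54105001 were higher by 0.84 and 1.02. Trdd1, the first Dδ segment, held 1.35%, 1.58% and 1.64% with INT2 and 1.02%, 1.19% and 1.12% with TEAp (0.46 ± 0.09). Of the 15 bins higher with INT2, 3 kept the call with DESeq2: 54070001, 54075001 and 54105001.

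On the V side, 7 bins were higher with TEAp and 6 with INT2. The former were the bins of Trav18, Trav21, Trav23, Trdv2-2 and Trdv3 and 2 bins without an annotated gene, at 53900001 and 53990001. Trav21 held 1.28%, 1.27% and 1.36% with INT2 and 1.99%, 2.09% and 2.19% with TEAp (-0.68 ± 0.08), and Trav23 held 0.927%, 0.917% and 0.934% against 1.38%, 1.37% and 1.37% (-0.57 ± 0.09). The 6 bins higher with INT2, at 53770001, 53825001, 54010001, 54020001, 54040001 and 54045001, hold no annotated gene. The one at 54045001, 20 kb upstream of the bait bin, held 0.546%, 0.407% and 0.513% with INT2 and 0.246%, 0.239% and 0.243% with TEAp (1.01 ± 0.17). None of the 6 was called in the reads left (adjusted p from 0.493 to 0.975) or with DESeq2. Of the 7 bins higher with TEAp, Trdv2-2 and Trdv3 were called in the reads left and the other 5 were not (adjusted p from 0.0785 for Trav21 to 0.935).

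Downstream of TEAp, Jα segments and Eα were again higher with TEAp. Traj52 to Traj48 held 1.60%, 2.03% and 1.63% with INT2 and 3.38%, 3.38% and 3.13% with TEAp (-0.91 ± 0.07). Traj47 to Traj43 differed by -0.82 ± 0.08, Traj61 to Traj56 by -0.64 ± 0.07 and Eα by -0.64 ± 0.09, and the first bin of Dad1, a ubiquitously expressed gene downstream of Eα, by -0.63 ± 0.09. These 5 bins were called with TMM and DESeq2 too. In the reads left the Dad1 bin was not called (-0.19, edgeR adjusted p = 0.493), and the Traj47 to Traj43 call there was lost without single libraries, as given above. Traj55 to Traj53 differed by -0.39 ± 0.09 among the outside fragments.

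The Tcrd interval held the highest bin of both views and both baits, at 54125001 between Trdj1 and Trdj2, followed by the Trdd2 and Trdj1 bin. For the first, the direction depended on the view. In the reads left it was higher with INT2, with 7.18%, 7.99% and 7.90% against 6.06%, 6.48% and 6.10%, and with all reads it was higher with TEAp, with 4.61%, 4.79% and 5.01% against 6.02%, 6.39% and 6.14% (-0.36 ± 0.05). With DESeq2 the bin's difference in the reads left was -0.20. The Trdd2 and Trdj1 bin differed in neither view beyond the spread of the libraries, with 3.70% ± 0.279 (SD, n = 3) and 3.81% ± 0.479 (SD, n = 3) of the outside fragments. The Trdv5 bin, higher with TEAp in the reads left, held 2.12% to 2.29% with INT2 and 2.03% to 2.35% with TEAp among the outside fragments.

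**Figure D3:**
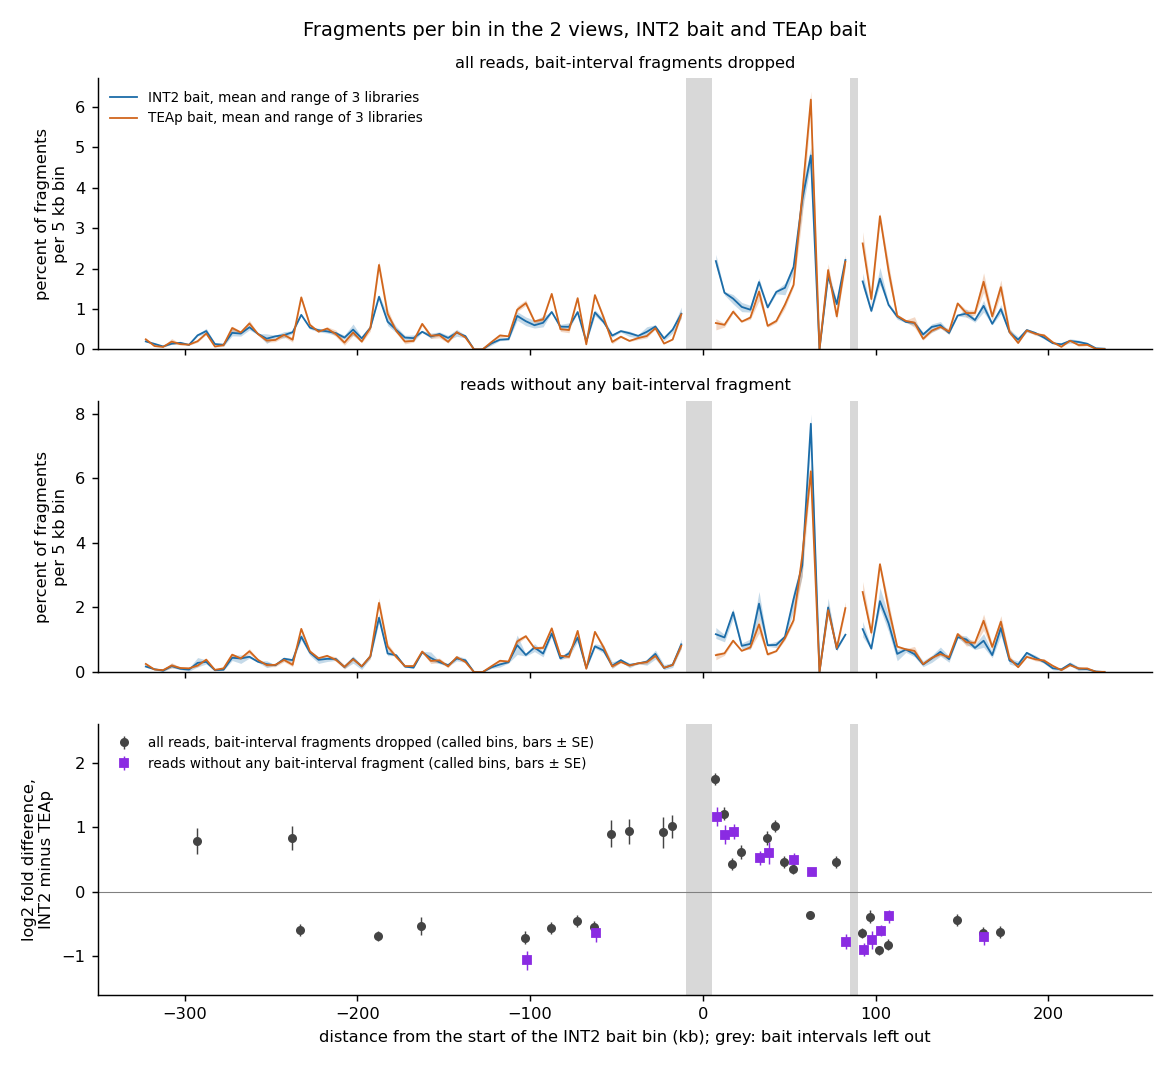
Percent of fragments in each 5 kb bin (y axis, upper 2 panels) against the distance from the INT2 bait bin in kb, for all reads with the bait-interval fragments dropped and for the reads left, and the log2 difference of the called bins with bars of 1 SE (lower panel). Lines are means of 3 libraries and shading is their range. In both views the highest bin lies at 60 kb, INT2 is higher next to the first grey interval and TEAp is higher past the second.

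As a part of the outside fragments, the Tcrd interval made up 27.9%, 27.8% and 28.8% with INT2 and 23.9%, 24.6% and 23.6% with TEAp. Proximal Jα segments made up 2.46%, 2.62% and 2.83% against 3.84%, 4.15% and 3.61%. Distal Jα segments made up 7.77% ± 0.471 (SD, n = 3) against 10.3% ± 0.588, and Trac to Eα made up 2.69% ± 0.141 against 3.47% ± 0.277. Proximal V genes made up 26.3% to 27.7% against 27.9% to 29.6%, and the downstream flank 4.32% ± 0.142 against 4.83% ± 0.272. Higher with INT2 were also distal and central V genes (2.45% ± 0.021 against 2.09% ± 0.170) and the rest of chromosome 14 (25.1% ± 0.494 against 22.8% ± 0.815). The groups did not overlap in any class of the outside fragments.

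The 29 elements of the list are V, D, J and constant segments, Eα and the neighbouring genes, and some share a bin. In the reads left, Trav18, Trav21, Trdv2-2, Trdv3, Trdv5, Trdc, Traj61, Traj58, Traj57, Traj56, Traj50 and Eα were higher in each TEAp library than in any INT2 library, and none of the 29 was higher in each INT2 library. Traj61, Traj58, Traj57 and Traj56 share a bin, as do Trdv5 and part of Trdc. Of the 2801 bins tested in these reads, 162 were higher in each TEAp library and 45 in each INT2 library. Trdv4, whose bins were called higher with INT2, is not on the list. Trav14-3, Trav12-4, Trav3-4, Trav17, Trav19 and Trdv1 overlapped between the baits in both views, as did Trdd2, Trdj1, Trdj2, Traj18, Traj2, Abhd4 and Oxa1l. Trav17, a proximal Vα gene, held 0.361%, 0.393% and 0.394% of the outside fragments with INT2 and 0.343%, 0.393% and 0.396% with TEAp. Traj18 and Traj2, in the middle and at the end of the Jα array, held 0.602% ± 0.083 and 0.885% ± 0.103 with INT2 and 0.557% ± 0.026 and 0.897% ± 0.093 with TEAp (SD, n = 3).

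**Figure D4:**
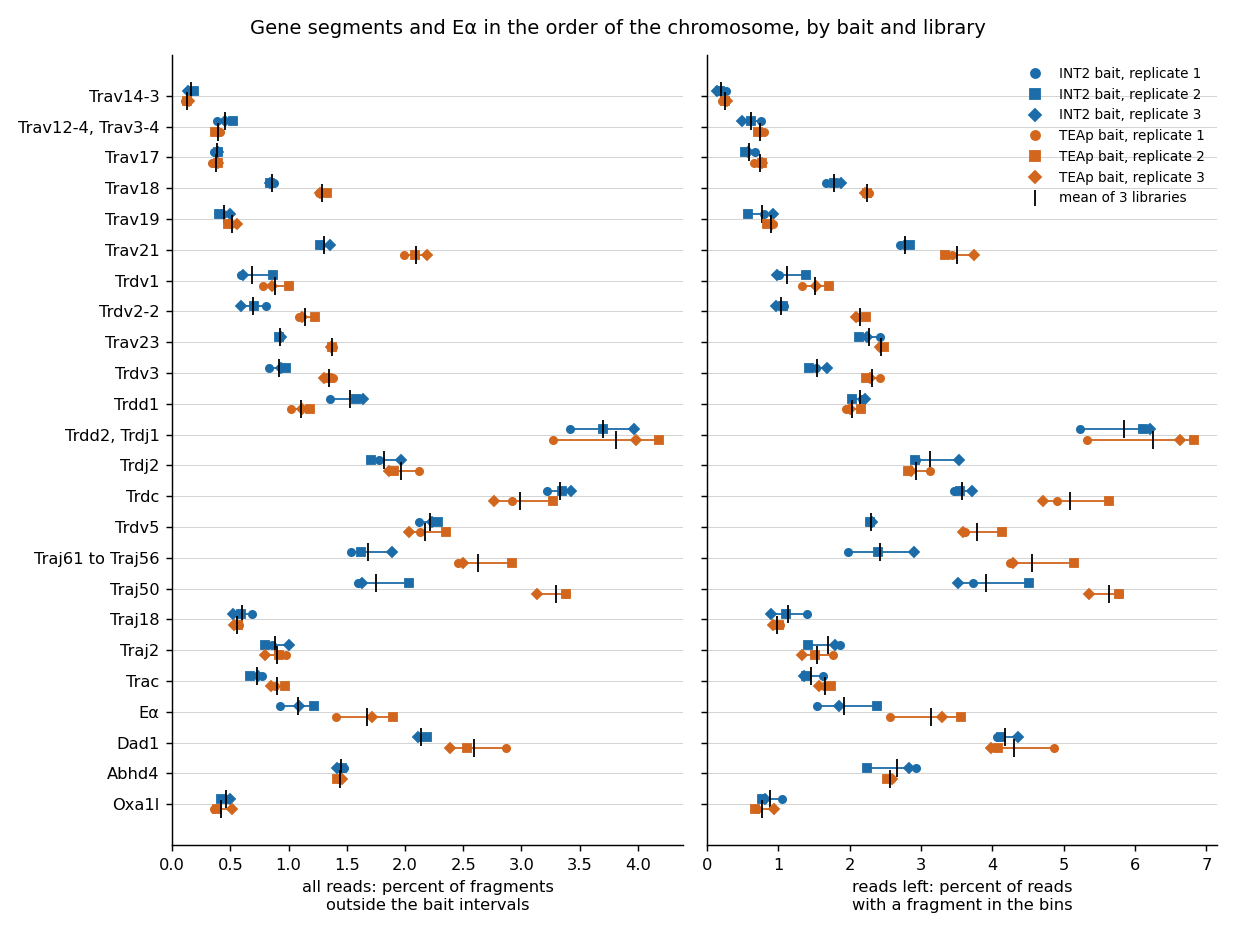
Values of the listed gene segments, Eα and neighbouring genes in the order of the chromosome, 1 point per library, as percent of the fragments outside the bait intervals (left) and as percent of the reads left that hold a fragment in the element's bins (right). Segments that share a bin share a row. The orange points of Trav18, Trav21, Trdv2-2, Trdv3, Traj61 to Traj56, Traj50 and Eα lie right of the blue points in both panels, and those of Trav17, Traj18 and Abhd4 overlap.

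The three-way contact of INT2, TEAp and 1 more fragment can be read from either bait. It was found in 219, 481 and 306 INT2 reads and in 18185, 13671 and 20896 TEAp reads, where the TEAp side counts any of the 3 INT bins. The third fragment lay among V genes in 26.5%, 26.6% and 25.5% of these INT2 reads and in 31.3%, 33.6% and 34.4% of the TEAp reads, groups that did not overlap (exact permutation p = 0.1, adjusted p = 0.150). It lay in the Tcrd interval in 41.1%, 27.7% and 38.2% with INT2 and in 29.8%, 29.4% and 30.2% with TEAp, and between Traj61 and Eα in 20.5%, 8.52% and 12.1% against 19.8%, 20.1% and 17.2%, both with groups that overlapped.

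By bin, 14 of 309 bins of the third fragment were called higher with INT2 (4.53%) and 0 higher with TEAp (0.0%) by edgeR, with 47 at an unadjusted p under 0.05. In none of the 14 did the groups stay apart, and in each, 1 INT2 library held all of the INT2 reads or all but 1. The bin of Abhd4, a gene downstream of Dad1, had 0, 73 and 1 reads with INT2 and 61, 40 and 69 with TEAp, so 73 of the 481 reads of INT2 replicate 2 fell in it. The bin of Trav22 had 0, 33 and 0 reads with INT2. Without INT2 replicate 2 there were 9 calls and with the replicate block 0, TMM gave 11 and 8 and DESeq2 gave 4 and 17. With 219 to 481 INT2 reads, the value of a bin rests on few reads.

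**Figure D5:**
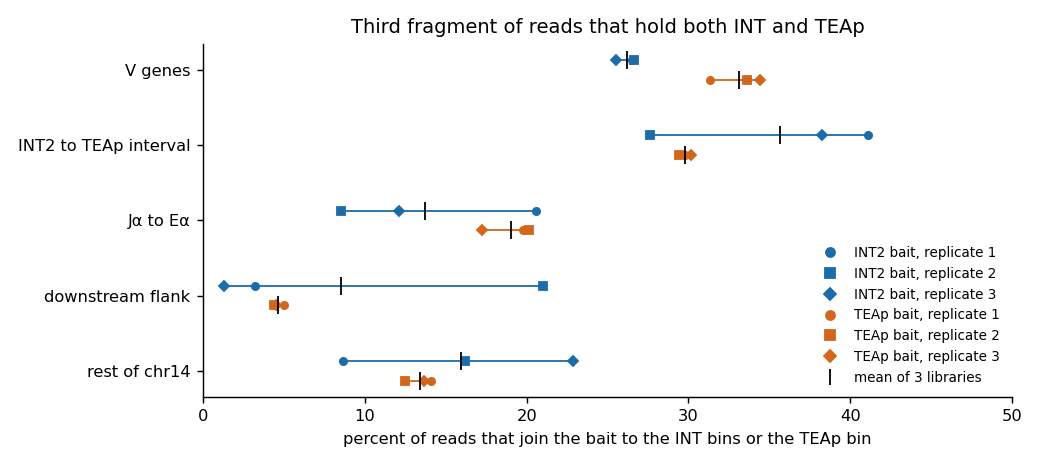
Where the third fragment lay in reads that join the bait to the other bait's bins, as percent of those reads (x axis), 1 point per library with the mean as a tick. For V genes the INT2 libraries, 25.5% to 26.6%, lie below the TEAp libraries, 31.3% to 34.4%, and in the other 4 rows the INT2 range overlaps the TEAp range.

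Liver cells of CBE+/+Rag1-/- mice, where the locus is silent, give the background of both baits, in 2 libraries each. For these the deposited pairs binned by fragment end were used in both tissues. The INT2 bait bin took part in 96.2% and 97.2% of the liver INT2 reads and in 79.7%, 83.4% and 80.9% of the DP reads, which left 1070 and 363 liver reads away from the bait intervals. The INT bins took part in 22.8% and 18.5% of the liver TEAp reads and in 25.5%, 26.2% and 26.7% of the DP TEAp reads. In the reads left, V genes were joined to the Tcrd interval in 0.748% and 2.20% with INT2 and in 2.53% and 1.63% with TEAp in liver cells, against 12.4%, 11.5% and 11.7% and 9.81%, 9.60% and 9.23% in DP thymocytes. The INT2 bait exceeded TEAp in DP thymocytes and the baits overlapped in liver cells. The change of the bait difference between tissues did not pass the test (exact permutation of tissue labels within each bait, 100 arrangements, p = 0.55, adjusted p = 0.784). Shuffled labels mix DP and liver values, which lie far apart with both baits, so this test cannot decide whether liver cells share the bait difference. Both fragments in the interval were more frequent with INT2 than with TEAp in liver cells as well, with 36.0% and 40.2% against 22.9% and 27.8%.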

How the data were processed

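Libraries (6 of DP thymocytes, 4 of liver) were grouped by their titles. Per the methods and labels, the authors trimmed reads with fastp 0.20.0 and Cutadapt 1.18, merged them, split them at MboI sites, aligned fragments to the digested mm10 genome with Bowtie2 2.4.5, kept exact alignments (SAMtools 1.9), removed self-ligated and off-target fragments, and kept the first 2 fragments after the bait. The deposited counts give the reads of each library for each pair of 5 kb bins and are not normalized. A second deposited table of counts bins fragments by their end (used for liver cells). For the TEAp baits alone, a deposited table of another kind lists each read with its fragments, and the counts rebuilt from it equalled the deposited ones. INT2 reads were not analysed singly here, so copies per pair are not known for them. The authors' scaled signal was not used here.

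Pairs with at least 10 counts over the 6 libraries were tested with edgeR 4.0.16 (quasi-likelihood, with the sum of the reads compared as library size) in R 4.3.3, with Benjamini-Hochberg adjustment and a threshold of 0.05. Shares were compared with exact two-sided permutation tests. The edgeR tests were run on simulated counts first. A simulated log2 difference of 2 was recovered for 2.5% of the changed pairs with bait bins and 2% without. It was recovered for 8.5% of the bins, 0% of the third-fragment bins and 100% of the class pairs. Among the features with the most counts these values were 95%, 60%, 100%, 0% and 100%. A run gave 0 to 11 false calls. Python 3.11.15 with numpy 2.4.6 and pandas 2.3.3 was used. Sequences are from the RefSeq GRCm38 genome, in which all 52958 fragment ends examined lay at GATC. Gene names and coordinates are from the GENCODE annotation of mm10.

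Alternatives were TMM, DESeq2 1.42.0, a replicate block, each library left out, same-bin pairs left out, libraries thinned to the smallest, no filter, both fragments in the locus region, 10 kb bins, wider bait intervals, other INT and TEAp windows and distinct TEAp pairs. Added after the data were seen were bins by fragment end and the fragments outside the bait intervals of every read. The groups, classes and lists were chosen with earlier results of these data known. Named bins and pairs are up to 5 per direction (3 for the third fragment) with the largest log2 difference among those called whose groups do not overlap, and the listed elements. Other called bins of the locus named in the text were chosen after their values were seen, and so were the 2 bins of the third fragment. Replicate numbers were checked for pairing: deviations of same-numbered libraries correlated at 0.21, 0.28 and 0.05, and those of libraries with different numbers at -0.25 to 0.047. Pairing is therefore not excluded. The main tests did not take the numbers as pairs, and the replicate block did.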

Additional observations from a re-analysis of the deposited data

Results flagged for a closer look

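The difference between the baits itself differed between DP thymocytes and liver cells in 5 of 18 shares at an unadjusted p under 0.05 and in 4 after adjustment, by an exact two-sided permutation of the tissue labels within each bait (100 arrangements). Shuffling these labels also shuffles any tissue difference that both baits share, so the p-values do not isolate the bait difference. For a fragment in a bait interval, INT2 exceeded TEAp by 59.6 percentage points in DP thymocytes and by 75.8 in liver cells, a difference of -16.3 (exact permutation p = 0.01, adjusted p = 0.045). For the own bait bin the difference was -15.7 and for the INT bins -16.1, both with an exact permutation p of 0.01 and an adjusted p of 0.045. For a fragment in the TEAp bin it was -0.586 percentage points (exact permutation p = 0.03), which failed the correction with an adjusted p of 0.108. Without pairs inside a single bin these 4 differences were -7.46 (exact permutation p = 0.21), -15.3 (p = 0.1), -7.90 (p = 0.19) and -0.177 (p = 0.68), and none passed. For the third fragment in the Tcrd interval it was 44.4 percentage points (exact permutation p = 0.01, adjusted p = 0.045), from 40.4% and 31.1% in DP thymocytes with INT2 and TEAp and 0% and 35.1% in liver cells. The liver INT2 value rests on 9 and 1 reads, so a count of 0 there says little about the share, and 682 and 122 reads stand behind the liver TEAp value.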

How the results depend on the processing

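Of the pairs of bins with the bait bins kept, 317 were called without the filter on low counts, in place of 513. Without bait-interval pairs, TMM called 3, leaving out same-bin pairs called 0, and leaving out each library gave 3 to 9 in place of 6. The bin profile gave 39 calls with DESeq2, 11 without same-bin pairs, 13 to 22 without each library, and 30 (32 with DESeq2) for the outside fragments, in place of 19. Bins of the third fragment, 14 at first, gave 0 with the replicate block, 7 thinned, 2 in the locus region, 8 by fragment end, 0 with the INT2 bait bin alone as INT window, and 5 to 16 without each library. Among the outside fragments the bin at 54145001 changed to 0.028 and the second Trdc bin, at 54140001, to 0.46. The bin at 54125001 changed to -0.20 with DESeq2, and among the outside fragments to -0.36, -0.50 with TMM and -0.74 with DESeq2, where 54095001 changed to -0.14, 54115001 to -0.0091 and the Trdj2 bin at 54135001 to -0.47. Without each library, the difference between baits of the third fragment ranged from -2.37 (without INT2 replicate 2) to 7.48 percentage points in the flank and from -0.970 (without INT2 replicate 3) to 6.13 in the rest of the chromosome. Between tissues, without same-bin pairs, the differences for a bait interval, the own bait bin, the INT bins and the TEAp bin were -7.46, -15.3, -7.90 and -0.177 and no longer passed, and both fragments in the interval, -2.26, passed at an unadjusted p of 0.02. Without each library, the TEAp bin ranged from -0.938 to -0.234, and the third fragment in V genes from -25.2 (which passed, without liver INT2 replicate 2) to 8.12. The causes of these changes were not tested. Depth limits the INT2 side, whose reads left number 21586 to 40767. With the replicate number as a block, edgeR called 186 and 159 pairs with bait bins, 4 and 2 without, 7 and 7 bins and 4 and 9 class pairs (INT2 and TEAp), and each library correlated best with its own number, a hint from the data alone.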
